A study of Mus musculus with 15 samples.

Results

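The data describe the sugar, amino acid, peptide and monocarboxylate carriers of 11 solute carrier families in inflamed and polypoid mouse colon. A probe was included when its gene name on the array began with Slc followed by family 1, 2, 3, 5, 6, 7, 15, 16, 36, 38 or 43 and a member number. This gave 158 of 41174 probes, for 96 of 27389 genes. One of the 96 genes, Slc7a6os, carries the name of a neighbouring carrier but encodes no carrier itself, so the substrate classes below hold 95 genes. The names do not depend on any measured value.

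Colon tissue came from 8 female Swiss Webster mice. All of them received azoxymethane (AOM), a colon carcinogen, at 7.4 mg/kg, and then 3 cycles of 4% dextran sulfate sodium (DSS), which injures the colon lining. A cycle lasted 7 days on DSS and 21 on water. The mice were 7 weeks old at first, 9 when DSS began and 18 when killed. The 4 groups of 2 mice each were untreated inflamed, treated inflamed, untreated polypoid and treated polypoid. Treated mice were given 5-ASA (5-aminosalicylic acid, mesalamine, an anti-inflammatory drug for colitis) at 75 mg/kg, and untreated mice got vehicle. Inflamed or polypoid areas were taken by laser capture from frozen sections, each mouse gave 1 kind of tissue, and no group was free of AOM and DSS.

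Solute carriers are membrane proteins that move small molecules into or out of cells, some driven by sodium or proton gradients and some by exchange. In the colon, surface epithelial cells burn butyrate made by bacteria, which enters through the sodium-coupled carrier Slc5a8 and the proton-coupled carrier Slc16a1. Dividing cells need carriers for glucose and amino acids, and cells that run glycolysis release lactate through Slc16a3.

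Each array compared 1 mouse's amplified RNA with RNA of a universal mouse reference, labelled in the opposite dye, on 15 arrays in all. Every value below is log2 of sample over reference, so 0 means equal signal, a difference of 1 means a 2-fold change, and values of different genes cannot be ranked against each other. Per array, 57.4% to 90.9% of the spots exceeded background clearly in the channel of the mouse's RNA (called well above background), lowest on the only array of treated inflamed replicate 2. Epithelial markers were present in all groups: the mean of 8 such genes was 2.91 to 3.43 in the inflamed and 2.84 to 3.54 in the polypoid samples. The labels do not say whether the mice of a group shared a litter or cage, and p-values measure the spread between these mice. The 2 mice of every group were scanned in different sessions, and session 3 alone held both tissues. It held 1 untreated inflamed, 1 untreated polypoid and 1 treated polypoid mouse, so a difference within session 3 is the mean of both polypoid mice minus the inflamed one and mixes the arms. The value of the untreated polypoid mouse alone is given after it.

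Of the 96 genes, 54 were well above background on every array of all 4 groups, 31 in 1 to 3 groups and 11 in none. Counted by group, 79 passed without and 62 with 5-ASA in inflamed tissue, and 64 without and 78 with it in polypoid tissue. The 85 genes that passed in at least 1 group were tested. Those that passed in none included the sugar carrier Slc5a4a, the monocarboxylate carriers Slc16a4 and Slc5a12, the amino acid carriers Slc6a5, Slc6a15, Slc6a19, Slc7a2 and Slc7a10, the choline carrier Slc5a7 and Slc16a14. Slc6a19, the main neutral amino acid carrier of the small intestine, and Slc5a12 were not well above background on any array. Among the 18 sugar and polyol carriers, 17 passed in untreated inflamed tissue and 10 in treated inflamed tissue. The arrays with the fewest spots above background touch these counts directly, since a gene had to pass on every array of a group.

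Polypoid and inflamed tissue were first compared over both treatment arms, 4 mice of each. Of the 85 measured members, 10 passed an adjusted p of 0.05 in limma with Benjamini-Hochberg adjustment over 21301 genes, 6 higher and 4 lower in polypoid tissue. Over all genes tested, 5.94% passed, 3.98% higher and 1.97% lower. At an unadjusted p under 0.05 there were 31 of 85 members, against 23.2% of all genes. The carriers that rose were Slc16a3 for lactate, Slc16a10 for aromatic amino acids, Slc6a13 for GABA and taurine, Slc5a9 for mannose and glucose, Slc7a6 for cationic and neutral amino acids, and Slc16a11. Those that fell were the peptide carrier Slc15a1, the serotonin carrier Slc6a4, the purine nucleobase carrier Slc43a3, and Slc16a9, which is linked to carnitine. In 11 members the 4 polypoid samples all lay above the 4 inflamed samples and in 14 all below, against 8.37% and 7.91% of all genes. The 14 include Slc16a5 and Slc2a10, which passed the background filter only through untreated inflamed tissue, so the filter bears on this count.

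**Figure D1:**
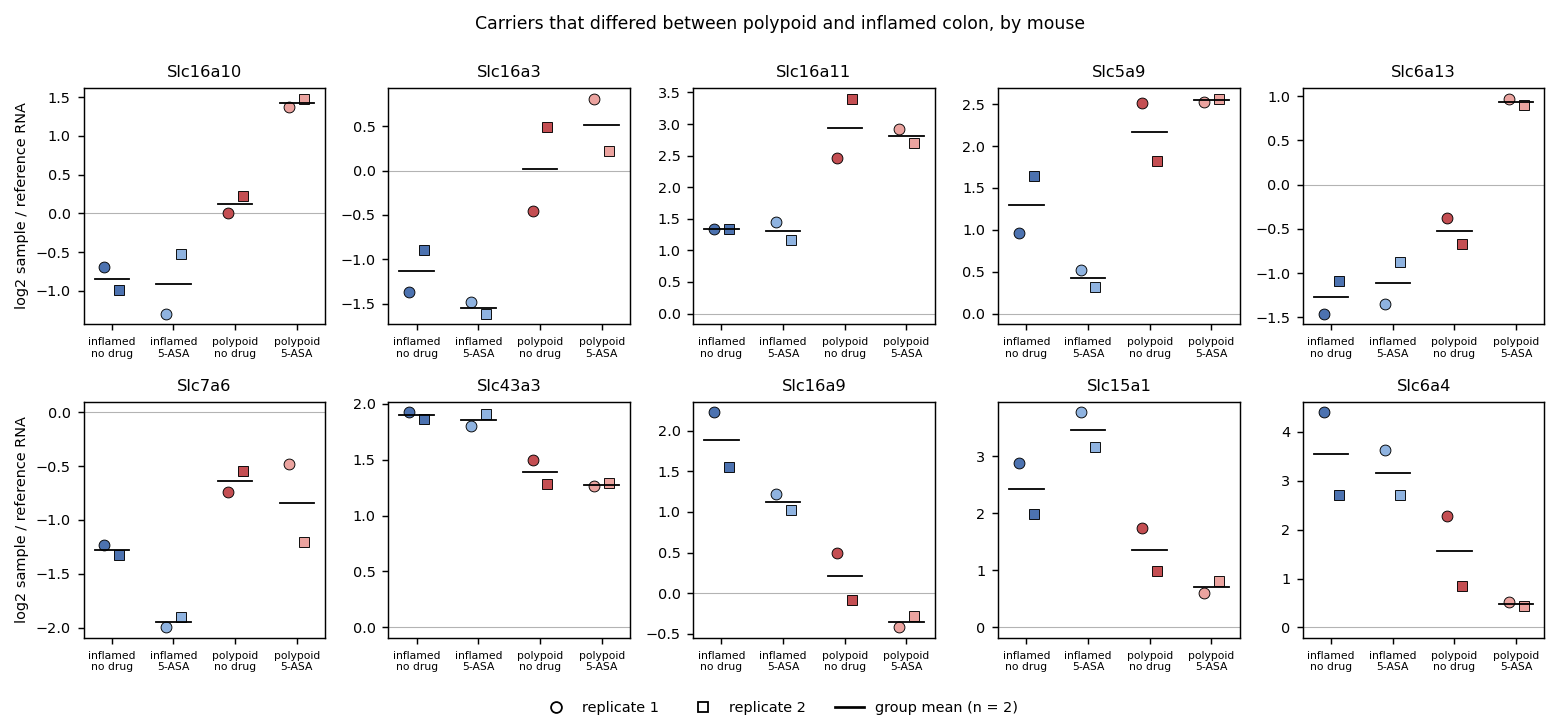
Log2 of sample over reference for the 10 carriers that differed between tissues, 1 point per mouse, with circles for replicate 1, squares for replicate 2 and a bar for the mean of the 2 mice of a group. In each panel the inflamed and polypoid points do not overlap, and for Slc16a10 and Slc6a13 both treated polypoid points lie above both untreated polypoid points.

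Promoter sequences were available in RefSeq (GRCm38.p6) for 8 of these 10 genes. Shown are the 250 bases before the start of 2 carriers that rose, Slc16a3 and Slc6a13 (the first of its 3 listed starts), and 2 that fell, Slc15a1 and Slc6a4. Each is written 5′ to 3′ on the gene's strand, and capitals mark matches to the motifs given after them.
Slc16a3, chr11:120948817-120949066, plus strand: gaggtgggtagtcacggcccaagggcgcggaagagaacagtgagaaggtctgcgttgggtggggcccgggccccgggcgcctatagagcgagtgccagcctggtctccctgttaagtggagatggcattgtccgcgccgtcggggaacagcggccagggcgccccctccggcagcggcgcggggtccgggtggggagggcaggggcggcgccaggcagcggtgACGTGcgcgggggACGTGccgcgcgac
Slc6a13, chr6:121300038-121300287, plus strand: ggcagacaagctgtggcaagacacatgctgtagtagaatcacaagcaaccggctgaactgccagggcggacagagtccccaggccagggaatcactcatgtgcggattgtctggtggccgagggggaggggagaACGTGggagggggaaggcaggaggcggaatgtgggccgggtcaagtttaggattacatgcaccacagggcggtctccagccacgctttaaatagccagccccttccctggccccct
Slc15a1, chr14:121505255-121505504, minus strand: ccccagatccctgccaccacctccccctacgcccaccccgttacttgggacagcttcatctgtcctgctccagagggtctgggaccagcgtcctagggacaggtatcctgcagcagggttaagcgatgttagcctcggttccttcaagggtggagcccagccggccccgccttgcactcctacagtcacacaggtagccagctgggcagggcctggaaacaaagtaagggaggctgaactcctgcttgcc
Slc6a4, chr11:76998347-76998596, plus strand: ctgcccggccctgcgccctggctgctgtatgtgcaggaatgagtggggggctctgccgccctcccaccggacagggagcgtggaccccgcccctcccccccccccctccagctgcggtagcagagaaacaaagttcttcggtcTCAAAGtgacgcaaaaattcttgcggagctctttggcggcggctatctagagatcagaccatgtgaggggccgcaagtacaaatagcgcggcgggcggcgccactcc
Motifs were searched on both strands: CACGTG (the E-box bound by Myc), ACGTG (the core of hypoxia response elements, which every CACGTG contains), CTTTGA (bound by TCF factors), TTTATG (bound by CDX factors) and TGATGNAAN (the amino acid response element). Slc16a3 held ACGTG at 27 to 23 and again at 14 to 10 bases before its start, Slc6a13 held it at 116 to 112, and Slc6a4 held CTTTGA, on the other strand, at 107 to 102. Another start of Slc6a13, not shown, held CTTTGA at 227 to 222. Of the called genes not shown, Slc7a6 held ACGTG, while Slc16a10 and Slc16a11, which rose, and Slc16a9, which fell, held none of the motifs. Over all 32851 promoters of this length, 6.02% held CACGTG, 16.6% ACGTG, 13.8% CTTTGA, 10.8% TTTATG and 3.44% TGATGNAAN. Among 81 promoters of 60 measured members, 11 held CACGTG, 18 ACGTG, 14 CTTTGA, 1 TTTATG and 3 TGATGNAAN. The 2 sets differ in base content, with a median of 58.8% G and C in the members' promoters and 52.4% over all promoters. The part of this in the motif counts was not tested. These are matches of letters, and no binding was measured.

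By substrate class, medians of the tissue difference ranged from -0.29 to 0.70, beside -0.02 over all genes. Among sugar and polyol carriers the median was -0.18, with 15 of 17 genes negative (11226 of 21301 over all genes) and 1 called. Of the 18 genes of this class, 8 passed the background filter in all 4 groups. The 15 include Slc2a10, which passed only in untreated inflamed tissue. They also include Slc2a2 and Slc2a3, which kept their sign in 20 of 21 alternatives. The class median was negative in all 21, from -0.22 to -0.12. For 7 monocarboxylate carriers (1 rose) the median was -0.29. That is the value of Slc16a5, whose probe passed the filter only through untreated inflamed tissue. Under other processings or without a mouse this median stayed negative, from -0.70 to -0.12. Medians were 0.10 for 10 heteromeric amino acid exchangers (1 rose), 0.00 for 4 cationic amino acid carriers (0 called) and -0.05 for 7 members of family 1 (0 called). The 5 sodium-coupled carriers of family 38 had a median of 0.70, with 3 positive and 0 called. That median counts Slc38a4 by a probe that passed the filter only through the polypoid groups, and it was 0.31 when probes had to pass on all arrays and 0.43 with the mean of a gene's probes. The others were -0.05 for 13 other amino acid carriers (1 rose), -0.05 for 9 carriers of amines, osmolytes and creatine (1 rose, 1 fell), -0.11 for 4 peptide carriers (1 fell) and -0.09 for 8 with other or unsettled substrates (1 rose, 2 fell). The medians of the cationic carriers, the amine carriers and the other amino acid carriers changed sign under at least 1 other processing, so no direction is given for those.

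**Figure D2:**
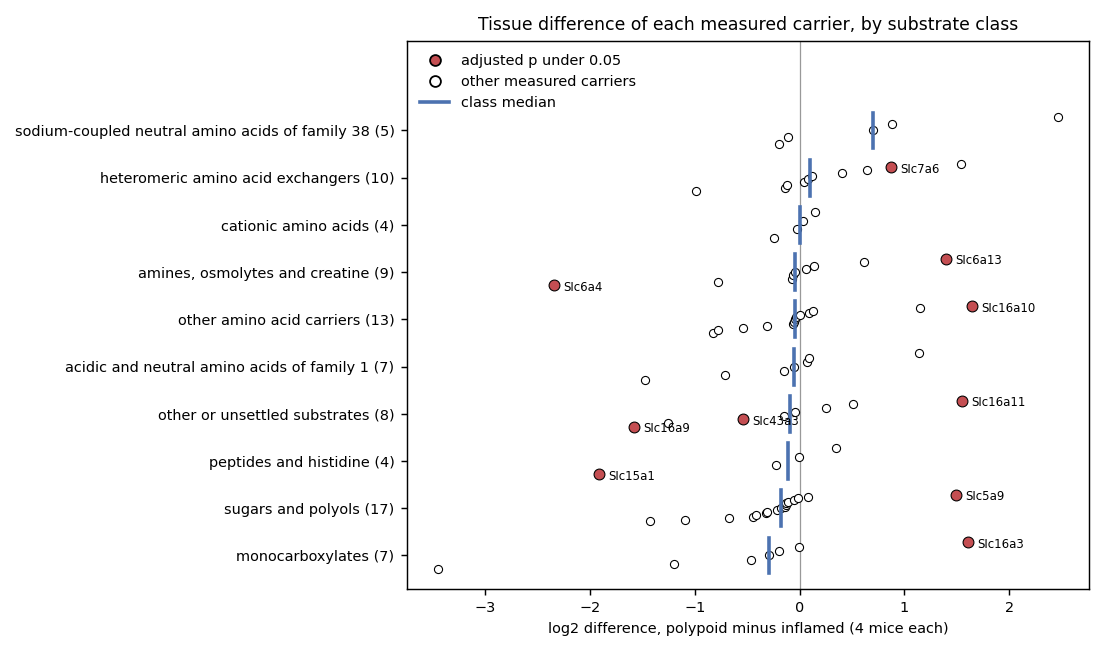
Log2 difference of polypoid minus inflamed tissue (4 mice each) for the 84 measured carriers, in rows by substrate class with the number of genes in brackets. Filled points passed an adjusted p of 0.05 and are named, open points did not, and the blue bar is the class median, from -0.29 for monocarboxylates to 0.70 for family 38. The monocarboxylate median is the value of Slc16a5, whose probe passed the filter only through untreated inflamed tissue. The family 38 median counts Slc38a4 by a probe that passed only through the polypoid groups.

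Of the 7 monocarboxylate carriers measured, the lactate exporter alone passed. Slc16a3, the exporter of lactate from glycolytic cells, stood at -1.37 and -0.90 without and -1.48 and -1.61 with 5-ASA in inflamed tissue and at -0.45 and 0.49 without and 0.81 and 0.22 with it in polypoid tissue. The rise was 3.05-fold (a log2 difference of 1.61 ± 0.26, SE, with a limma adjusted p of 0.025). Every polypoid sample lay above every inflamed one. Within scan session 3 the difference was 1.26, and 1.39 with the untreated polypoid mouse alone. Slc5a8, the sodium-coupled butyrate carrier, stood at 6.51 and 4.19 without and 6.62 and 5.48 with 5-ASA in inflamed tissue and at 5.30 and 1.29 without and 1.58 and 0.84 with it in polypoid tissue. Its difference of -3.45 ± 0.98 was the greatest in size of the 85 members and missed the threshold (limma adjusted p = 0.099). Of the polypoid samples, 3 lay below the inflamed range and untreated polypoid replicate 1, at 5.30, lay inside it. Slc16a1, the proton-coupled carrier of butyrate, lactate and ketone bodies, had values of 0.87 and -0.13, 1.65 and 1.72, 0.66 and -0.62, and 0.06 and -0.79 in the same order of groups. Its difference was -1.20 ± 0.38 (limma adjusted p = 0.13), and the tissues overlapped. Of its 3 probes a dim one gave -0.15 and the other two -1.20 and -1.30.

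Of the genes that handle butyrate and ketone bodies, 6 of 12 were lower and 0 higher in polypoid tissue, with a median of -0.68. They included Hadh (-0.91 ± 0.09, limma adjusted p = 0.0092) and Acat1 (-0.86 ± 0.14), enzymes of fatty acid oxidation and ketone body turnover, and Cpt1a (-0.77 ± 0.11), which admits fatty acids to mitochondria. Of 16 glycolysis genes, 1 rose and 1 fell. Pfkfb3, whose product makes an activator of glycolysis, was higher by 1.27 ± 0.23 (adjusted p = 0.035), and hexokinase Hk1 differed by -0.84 ± 0.16 (adjusted p = 0.036). Lactate dehydrogenase Ldha, at 0.07, was saturated on 8 of 15 arrays, which can hide a difference. The chaperones of the lactate carriers, Bsg and Emb, differed by 0.13 and 0.04 (adjusted p = 0.76 and 0.96).

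The samples also differed in cell type markers. Of 10 mature colonocyte genes 6 were lower in polypoid tissue and 0 higher, and all 10 were measured. The list's mean was 3.04 to 3.48 in the inflamed samples, 2.50 and 1.18 in untreated polypoid and 0.46 and 0.34 in treated polypoid samples. Among them the chloride exchanger Slc26a3 differed by -3.85 and the carbonic anhydrase Car4, well above background on 7 of 8 polypoid arrays, by -3.21. Of 7 measured neutrophil genes 4 were higher, with a list mean of 0.19 to 0.57 in inflamed and 1.82 to 2.75 in polypoid samples. Of these 7 genes, 2 were well above background on every array, so the list mean rests partly on dim signals. Of 7 inflamed arrays, 2 had Retnlg well above background, and for Cxcr2, which was not called, the number was also 2. Of 10 smooth muscle genes 4 were lower, with means of 1.06 to 2.81 in inflamed and 0.45 to 0.92 in polypoid samples. The part of these markers in the carrier values was not tested, and in captured tissue fewer cells of a type and less RNA per cell cannot be told apart. Untreated polypoid replicate 1, which lay nearest the inflamed samples for Slc5a8, also had the highest colonocyte mean of the polypoid samples. This is 1 mouse, and a link between the values was not tested.

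**Figure D3:**
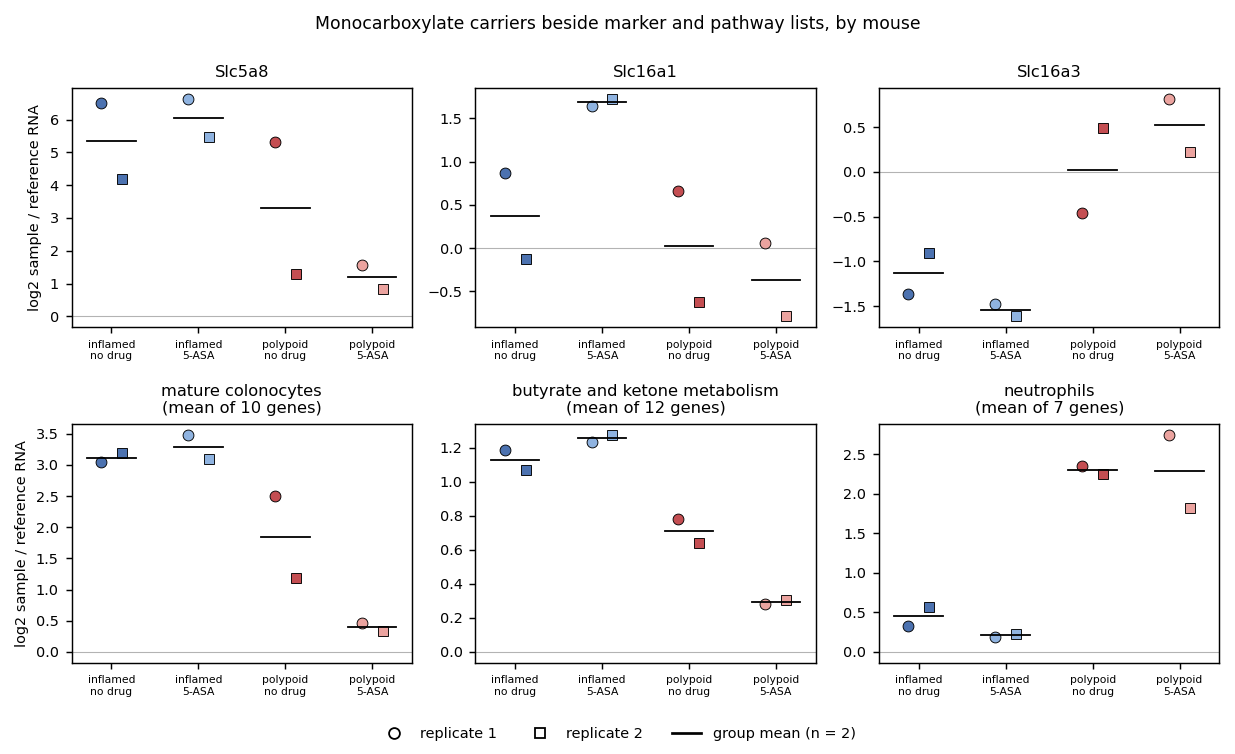
Log2 of sample over reference by mouse for Slc5a8, Slc16a1 and Slc16a3 (top) and for the mean of the mature colonocyte, butyrate and ketone, and neutrophil gene lists (bottom), with circles for replicate 1, squares for replicate 2 and bars for group means. Slc5a8 and the colonocyte mean were both highest in untreated polypoid replicate 1 among the polypoid samples, at 5.30 and 2.50. A link between them was not tested. Of the 7 neutrophil genes, 2 were well above background on every array.

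Among sugar carriers the sole call was Slc5a9, a sodium-coupled carrier of mannose and glucose. Its values were 0.96 and 1.64 without and 0.53 and 0.32 with 5-ASA in inflamed tissue and 2.51 and 1.82 without and 2.52 and 2.57 with it in polypoid tissue. It rose 2.81-fold (1.49 ± 0.21, limma adjusted p = 0.019) with no overlap between tissues, though the difference was 0.56 within scan session 3, 0.19 there with the untreated polypoid mouse alone, and 0.78 when session was a block term. Its second probe gave 0.96 ± 0.26 (limma adjusted p over all probes 0.097). Slc2a1, the glucose carrier of most dividing cells, stood at -0.19 and -0.18, -0.03 and -0.05, -0.19 and -0.01, and -0.37 and -1.55 in the same order of groups. The tissues overlapped (-0.42 ± 0.25, limma adjusted p = 0.39, 95% interval -1.04 to 0.20), and treated polypoid replicate 2 was the low sample. Slc2a3, a high-affinity glucose carrier, differed by -0.18 ± 0.26 and the apical glucose carrier Slc5a1 by -0.32 ± 0.30, both with overlap. Slc2a2, the low-affinity carrier of liver and gut, differed by -0.11 ± 0.11, and its 2 probes had opposite signs. Slc2a5, the fructose carrier, differed by -1.09 ± 0.26 (adjusted p = 0.065) and was well above background on 2 of 4 treated polypoid arrays. Slc2a4, the insulin-responsive carrier of muscle and fat, was named after its value was seen: its 4 polypoid samples, 0.01 to 0.87, lay below the 4 inflamed ones, 1.26 to 2.72 (-1.43 ± 0.35, adjusted p = 0.073).

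The proton-coupled peptide carrier Slc15a1, which takes up di- and tripeptides, fell. It stood at 2.88 and 1.99 without and 3.77 and 3.16 with 5-ASA in inflamed tissue and at 1.75 and 0.98 without and 0.61 and 0.81 with it in polypoid tissue. The change was 3.77-fold (-1.91 ± 0.28, limma adjusted p = 0.020), with -1.09 within scan session 3 (-1.003 untreated alone), and all polypoid samples lay below all inflamed ones. Its probe was well above background on 3 of 4 treated polypoid arrays and on all others. The other 3 members of its class, Slc15a2, Slc15a3 and Slc15a4, differed by -0.22, 0.34 and -0.01 with overlap (adjusted p from 0.36 to 0.99).

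Heteromeric exchangers pair a light chain of family 7 with a heavy chain of family 3, Slc3a2 or Slc3a1, that brings it to the membrane. Slc7a6, a light chain that exchanges cationic for neutral amino acids, had values of -1.24 and -1.32 without and -1.998 and -1.90 with 5-ASA in inflamed tissue and -0.74 and -0.54 without and -0.48 and -1.20 with it in polypoid tissue. It rose 1.83-fold (0.87 ± 0.17, limma adjusted p = 0.042) with no overlap, but treated polypoid replicate 2 lay only just above untreated inflamed replicate 1, and a second, dimmer probe gave 0.19 ± 0.12 (limma adjusted p over all probes 0.41). The mice of scan session 3 stood at -1.32 (untreated inflamed), -0.54 (untreated polypoid) and -1.20 (treated polypoid), so the treated one differed little from the inflamed one there. Slc7a5, the light chain for leucine and other large neutral amino acids, stood at -1.83 and -1.50, -2.03 and -1.60, -1.26 and -1.08, and -1.03 and -1.04 in the same order. All its polypoid samples were higher (0.64 ± 0.14), and it missed the threshold (limma adjusted p = 0.055). The heavy chain Slc3a2 differed by 0.11 ± 0.13 (95% interval -0.20 to 0.43). Slc3a1, the heavy chain of the cystine carrier, differed by -0.99 ± 0.23 (adjusted p = 0.063) and its partner Slc7a9 by -0.14 ± 0.15. Slc7a8, a second light chain for neutral amino acids, ranged from 0.41 to 1.60 in inflamed tissue, stood at 1.48 and 1.70 in untreated polypoid and 2.61 and 4.58 in treated polypoid samples, and differed by 1.54 ± 0.51 (adjusted p = 0.14). The cystine-glutamate exchanger Slc7a11 differed by 0.40 ± 0.22, with untreated polypoid replicate 2 high at 0.65, and Slc7a7 by 0.08 ± 0.22. By the probes used, Slc7a11 passed the background filter only through treated polypoid tissue and Slc3a1 only through the inflamed groups. The cationic carrier Slc7a1 differed by -0.24 ± 0.14 (adjusted p = 0.36).

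Slc16a10 carries aromatic amino acids despite its place in the monocarboxylate family. Its brightest probe stood at -0.69 and -0.99 without and -1.29 and -0.52 with 5-ASA in inflamed tissue and at 0.01 and 0.23 without and 1.37 and 1.48 with it in polypoid tissue. The rise was 3.13-fold (1.65 ± 0.19, limma adjusted p = 0.0125), with no overlap. Within scan session 3 it was 1.85, and 1.22 with the untreated polypoid mouse alone. The gene had 4 probes, and the 3 dimmer ones gave 0.33, 0.21 and 0.01, none past the threshold (limma adjusted p over all probes 0.28 to 0.97), so the call belongs to 1 probe. Of the neutral amino acid carriers of family 38, Slc38a2, which cells raise when amino acids are short, was higher in every polypoid sample (0.88 ± 0.21, adjusted p = 0.072): -2.46 to -2.22 in inflamed against -1.88 to -0.92. Its 4 probes all gave positive differences, 0.23 to 0.88. Slc38a1, a glutamine carrier, differed by 0.70 ± 0.21 (adjusted p = 0.12) with treated polypoid replicate 2 high at 0.65, and its 6 probes ranged from -0.31 to 0.79. Slc38a4, named after its value was seen, had a difference of 2.47 ± 0.58 (adjusted p = 0.065) by a probe that 4 of 7 inflamed arrays had well above background, while its other probe gave -0.08.

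In family 1, Slc1a1, a glutamate carrier of epithelia, fell short of the threshold (-1.48 ± 0.38, limma adjusted p = 0.083): 2.84 to 4.70 in inflamed, 3.52 and 2.05 in untreated polypoid and 2.02 and 1.35 in treated polypoid samples. Slc1a5, the glutamine and neutral amino acid carrier often studied in tumours, stood at 0.33 and 0.35 without and 0.25 and 0.12 with 5-ASA in inflamed tissue and at 0.05 and 0.09 without and 0.48 and 0.70 with it in polypoid tissue. Its tissue difference over both arms was 0.07 ± 0.10 (95% interval -0.17 to 0.30), with the untreated pair lowest and the treated pair highest of all groups. Slc1a4 (1.14 ± 0.25) and the glycine carrier Slc6a9 (1.15 ± 0.26), both named after their values were seen, had adjusted p-values of 0.056. Slc6a14, a broad sodium- and chloride-coupled amino acid carrier, was lower in every polypoid sample, -0.03 to 0.56 against 0.70 to 1.70, and missed the threshold (-0.78 ± 0.26, adjusted p = 0.14). A second Slc6a14 probe gave -2.65 (limma adjusted p over all probes 0.069).

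The amino acid stress response is a set of genes that the factor Atf4 switches on when amino acids are short. Of 18 measured, 15 had positive differences (median 0.48), against 10075 of all 21301 genes, and 0 rose and 1 fell. The one called was Cth, an enzyme that makes cysteine (-1.47 ± 0.25, adjusted p = 0.028). Asparagine synthetase Asns differed by 0.65 ± 0.20 and Psat1, of serine synthesis, by 0.93 ± 0.24 (adjusted p = 0.12 and 0.080), both named after their values were seen. Of 17 partners and regulators of carriers, 1 rose: the transcription factor Myc, by 1.89 ± 0.29 (limma adjusted p = 0.022).

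Among carriers of amines and osmolytes, Slc6a13 and Slc6a4 passed in opposite directions. Slc6a13, which takes up GABA and taurine, stood at -1.46 and -1.09 without and -1.35 and -0.88 with 5-ASA in inflamed tissue and at -0.38 and -0.67 without and 0.97 and 0.90 with it in polypoid tissue. It rose 2.63-fold (1.40 ± 0.16, limma adjusted p = 0.011), with no overlap, and by 0.99 ± 0.14 on the log2 scale by its second probe (limma adjusted p over all probes 0.022). Within scan session 3 the difference was 1.20, and 0.41 with the untreated polypoid mouse alone. Slc6a4, the serotonin carrier, which in the gut clears serotonin into epithelial cells and neurons, had values of 4.40 and 2.70, 3.62 and 2.71, 2.28 and 0.84, and 0.52 and 0.43 in the same order of groups. It fell 5.07-fold (-2.34 ± 0.49, limma adjusted p = 0.0497), just inside the threshold, and all polypoid samples lay below all inflamed ones. The mice of scan session 3 stood at 2.70 (untreated inflamed), 0.84 (untreated polypoid) and 0.43 (treated polypoid). The enteric neuron and glia list of 8 genes, whose mean was -0.34 to 0.19 in inflamed and -0.57 to -0.47 in polypoid samples, held 1 gene that fell and 0 that rose; its part in the Slc6a4 values was not tested. The creatine carrier Slc6a8 differed by -0.78 ± 0.19 (adjusted p = 0.074), and by -0.03 within scan session 3 (0.43 untreated alone). The taurine carrier Slc6a6 differed by 0.62 ± 0.30 (adjusted p = 0.29).

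In all, 3 carriers with other or unsettled substrates passed. Slc16a9 stood at 2.22 and 1.56 without and 1.22 and 1.02 with 5-ASA in inflamed tissue and at 0.49 and -0.08 without and -0.42 and -0.28 with it in polypoid tissue, a fall of 2.98-fold (-1.58 ± 0.20, limma adjusted p = 0.015). Slc16a11 stood at 1.33 and 1.33, 1.44 and 1.16, 2.46 and 3.40, and 2.92 and 2.70 in the same order and rose 2.94-fold (1.55 ± 0.22, limma adjusted p = 0.0185). For both genes the tissues did not overlap, and within scan session 3 the differences were -1.74 and 1.72 (-1.63 and 2.07 untreated alone). For Slc16a9, 3 of 4 treated polypoid arrays were well above background. The purine nucleobase carrier Slc43a3 changed least among the called members: it stood at 1.80 to 1.92 in the 4 inflamed and 1.26 to 1.499 in the 4 polypoid samples (-0.54 ± 0.09, limma adjusted p = 0.032). Slc5a6, the carrier of biotin and pantothenate, was just outside the threshold at -1.25 ± 0.27 (adjusted p = 0.054) and was named after its value was seen. Slc7a6os, the gene that is no carrier, differed by 0.37 ± 0.20 (adjusted p = 0.33). A further 9 carrier genes of these families had only probes under other names on the array; 7 were measured and 0 passed in limma, the nearest being the lysosomal carrier Slc38a9 (0.77 ± 0.17, adjusted p = 0.056).

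The count of 10 depended on single mice: without treated inflamed replicate 1 it was 1, without treated inflamed replicate 2 it was 2, without treated polypoid replicates 1 and 2 it was 3 and 4, and without untreated inflamed replicate 1 it was 6, while without untreated polypoid replicate 1 it was 15. With scan session as a block, which leaves 1 residual degree of freedom, limma called 0 members (13 at an unadjusted p under 0.05), and all 10 kept their sign.

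The tissue difference was then taken within each arm, 2 mice against 2. Without drug, 0 of 85 members passed in limma (20 at an unadjusted p under 0.05), against 0.164% of all genes (12.6% unadjusted). With 5-ASA, 5 of 85 passed, against 3.06% of all genes (2.04% higher, 1.02% lower), and 29 at an unadjusted p under 0.05, against 19.1%. Slc16a10 (2.34 ± 0.27), Slc5a9 (2.12 ± 0.30), Slc16a3 (2.07 ± 0.36) and Slc6a13 (2.05 ± 0.22) were higher and Slc15a1 (-2.76 ± 0.40) was lower in polypoid tissue, with limma adjusted p-values of 0.018 to 0.045. In untreated mice the same carriers differed by 0.96 ± 0.27, 0.87 ± 0.30, 1.15 ± 0.36, 0.74 ± 0.22 and -1.07 ± 0.40, in the same directions (adjusted p from 0.25 to 0.36). These 5 were picked by their test with 5-ASA, so larger differences there are partly a result of the choice. With 5-ASA, the dimmer Slc16a10 probes gave 0.34, 0.37 and 0.09 (limma adjusted p over all probes 0.71, 0.24 and 0.80). The second Slc5a9 probe gave 1.34 (0.125), and the second Slc6a13 probe, which passed, gave 1.54 (0.029). Slc16a11 differed by 1.60 without and 1.51 with drug, and Slc16a9 by -1.68 and -1.47. For Slc5a8 the differences were -2.06 ± 1.38 without drug and -4.84 ± 1.38 with it, and for Slc16a1 they were -0.35 ± 0.54 and -2.05 ± 0.54. The median tissue difference of the 10 mature colonocyte genes was -1.02 without drug (0 called) and -2.45 with it (5 lower), and that of the 8 epithelial genes 0.49 and -0.45 (0 called in either). The part of these markers in the carriers' values within each arm was not tested. The difference between arms was itself tested, and 0 members and 0 of all genes passed in limma (8 members at an unadjusted p under 0.05, against 5.98% of all genes). Leaving out each of the 4 treated mice in turn, the count of 5 became 0, and without untreated polypoid replicate 1 or 2 it became 10.

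**Figure D4:**
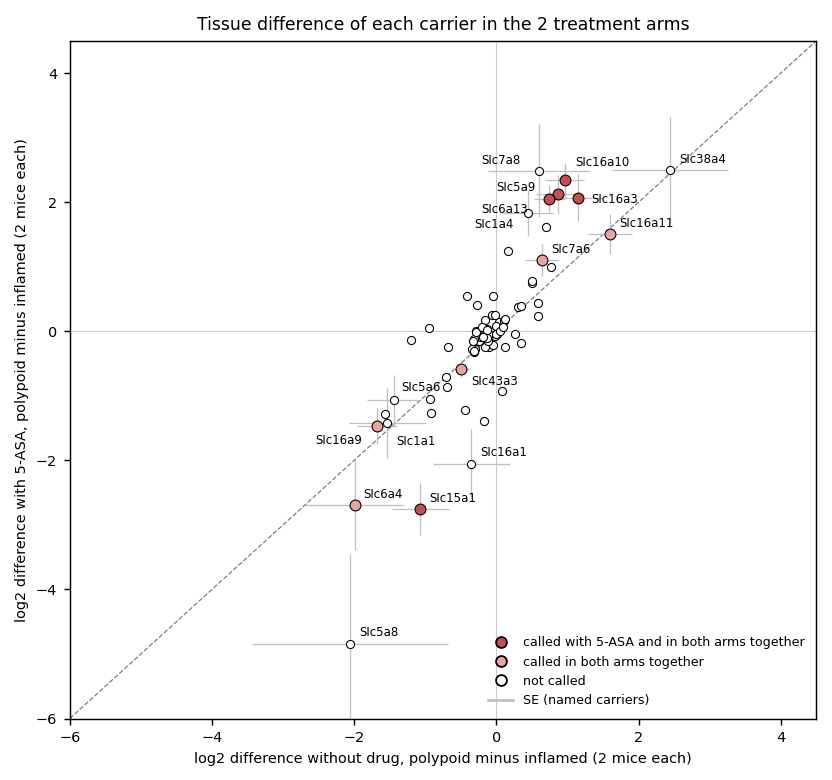
Log2 difference of polypoid minus inflamed tissue for each measured member without drug (x axis) and with 5-ASA (y axis), 2 mice a group, with grey SE bars on the named carriers and a dashed line of equality. The carriers that passed with 5-ASA, such as Slc16a10 (brightest probe) at 0.96 and 2.34 and Slc15a1 at -1.07 and -2.76, lie farther from 0 on the y axis. They were picked by that axis, so this is partly a result of the choice, and the difference between arms passed for none.

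Treated and untreated mice were compared over both tissues and within each. In limma 0 members passed in any of these comparisons, as did 0 of all 21301 genes (0% in each). At an unadjusted p under 0.05 there were 7 members over both tissues, 7 within polypoid and 6 within inflamed tissue, against 6.39%, 7.77% and 4.39% of all genes. Class medians of treated minus untreated tissue lay between -0.12 and 0.18 in polypoid and between -0.17 and 0.08 in inflamed tissue. Marker genes of treated against untreated polypoid tissue had 0 calls in limma, with negative differences for 8 of 8 epithelial genes (median -0.46), 10 of 10 mature colonocyte genes (-1.16) and 8 of 8 B and plasma cell genes (-1.52). In inflamed tissue, also with 0 calls, 10 of 10 smooth muscle genes (median -0.95) and 7 of 7 T cell genes (-0.13) were negative. There, 7 of 8 fibroblast genes (0.22) were positive. Over all 21301 genes, 10252 were negative in polypoid and 11237 in inflamed tissue. The part of these markers in the carrier values of treated and untreated mice was not tested. The class medians and the members with the smallest p, given next, are therefore values without a call.

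Slc6a13 had the smallest p over both tissues and within polypoid tissue. Both treated polypoid samples (0.97 and 0.90) lay above both untreated ones (-0.38 and -0.67), a difference of 1.46 ± 0.22 (limma adjusted p = 0.41), with 1.35 within scan session 2 and 1.57 within session 3. In inflamed tissue its difference was 0.16 ± 0.22. Slc16a10 followed in polypoid tissue at 1.31 ± 0.27 (limma adjusted p = 0.47), with 1.37 and 1.26 in the same sessions, and differed by -0.07 ± 0.27 in inflamed tissue. These values are those of its brightest probe alone. Slc1a5 came next at 0.52 ± 0.13 (adjusted p = 0.55), with 0.44 and 0.61, against -0.15 ± 0.13 in inflamed tissue. These 3 genes also had the smallest p when the drug differences of both tissues were compared, 1.30 ± 0.31, 1.38 ± 0.38 and 0.67 ± 0.19 (limma adjusted p = 0.80 for each).

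Over both tissues the differences were 0.81 ± 0.16 for Slc6a13, 0.62 ± 0.19 for Slc16a10 and -0.67 ± 0.20 for Slc16a9 (limma adjusted p = 0.76 for each). For Slc16a9, in each tissue both treated samples lay below both untreated ones. Within inflamed tissue the members with the smallest p were Slc5a9 (-0.88 ± 0.30), the urate and sugar carrier Slc2a9 (0.50 ± 0.18) and Slc7a6 (-0.67 ± 0.24), with limma adjusted p-values of 0.98. Scan session 1, which held 1 treated and 1 untreated inflamed mouse, gave -0.44, 0.48 and -0.76 for them. Slc15a1 and Slc16a1, which carry peptides and butyrate, stood higher in treated than in untreated inflamed tissue in both treated samples (1.03 ± 0.40 and 1.31 ± 0.54, limma adjusted p = 0.98 for each); they were not chosen by the rule for this comparison and are given because they are described above. For Slc5a8 the difference was 0.70 ± 1.38 in inflamed and -2.08 ± 1.38 in polypoid tissue, with 95% intervals from -2.67 to 4.07 and from -5.45 to 1.29, which do not set its direction.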

How the data were processed

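RNA of captured colon from 8 mice was amplified in 2 rounds and hybridised with a reference RNA on dual-colour Agilent arrays, 15 in all. Spot and background intensities are the scanner values deposited by the authors, read with Agilent Feature Extraction 9.1.1.1 per the file headers. Log10 ratios (red over green), processed signals and a value table of log2 ratios were also deposited by the authors and served as alternatives; how that table was background-corrected and normalised is not given in the sources used here. It follows the values here with correlations of 0.996 to 1.00 per array, slopes on the log10 ratio of 3.02 to 3.19 and column medians of -0.01 to 0.03, so its direction and log2 scale were settled and its centring is near 0.

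Intensities were corrected with normexp (offset 50), normalised by loess within arrays and turned to log2 sample over reference with limma 3.58.1 in R 4.3.3. Control and outlier spots were left out. A fit of mouse and dye gave 1 value per mouse. Probes were kept when all arrays of 1 or more groups had them well above background, the brightest per gene was used, and 21301 genes were tested with lmFit and eBayes, with Benjamini-Hochberg adjustment and a threshold of 0.05. The errors given are standard errors. The 8 mice share 1 estimate of the spread. Each mouse entered the test with 1 value, so the number of mice per group limits the precision, not the number of arrays. Symbols were updated from RefSeq (GRCm38.p6) for 22864 probes by accession and 10230 by name, and 8080 kept the array's name.

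Genes were named when past the threshold, when among the 3 smallest p-values of a drug contrast, or when on a list chosen for known roles, with at most 4 genes of a pathway or marker list. Exceptions are marked where they occur. The members and lists were chosen with earlier results of these data known. The script was tested on simulated data. Alternatives covered background correction, normalisation, the filter, the probe rule, dye, replicate number, scan session, the variance model and leaving out each mouse.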

Additional observations from a re-analysis of the deposited data

Results flagged for a closer look

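Within the 4 samples of a tissue, pooled over both arms, 7 of 66 sets of the named carriers held 1 sample far from the others (a gap to the nearest of them above Dixon's 95% limit). Chance gives this in about 1 of 20 sets. In polypoid tissue, untreated replicate 1 was the high sample for Slc5a8, at 5.30 against 0.84 to 1.58, and for Slc43a3, at 1.499 against 1.26 to 1.29. The same mouse was the low sample for Slc2a2, at 0.0668 against 0.140 to 0.145. Untreated polypoid replicate 2 was high for Slc7a11, at 0.65 against -0.35 to -0.31, and low for Slc5a9, at 1.82 against 2.51 to 2.57. Treated polypoid replicate 2 was high for Slc38a1, at 0.65 against -0.16 to -0.08. In inflamed tissue, untreated replicate 2 was high for the cationic amino acid carrier Slc7a1, at 0.73 against 0.18 to 0.25.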

How the results depend on the processing

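The 10 members called between tissues kept their sign under every alternative that measured them (21, or 20 for Slc15a1 and Slc16a9). The call itself held less often: in 9 for Slc6a4 and Slc43a3 and 10 for Slc7a6. It held in 19 for Slc6a13, 20 for Slc16a10 and 14 or 15 for the rest. Of the named carriers that were not called, Slc2a9 kept its sign in 17 of 21 (-0.07 to 0.19), Slc7a7 in 19 (-0.15 to 0.45), and Slc2a2, Slc2a3 and Slc3a2 in 20 each, so no direction is given for these. The count of 10 became 20 with the scanner's processed signals (10 higher, 10 lower), 16 with the replicate block and 0 with scan session as a block, and ranged from 1 to 15 when a mouse was left out. Median centring gave 7 higher and 3 lower, and the values as deposited gave 4 higher and 3 lower. Over all genes, 1266 calls became 0 with the session block and 125 to 1324 without a mouse. Without drug, 0 members became 1 with processed signals and stayed between 0 and 0 without a mouse. There, 35 genes became 118 with processed signals, 22 with the authors' table, 13 with scaling between arrays, 11 with no filter, 17 with the replicate block, 0 with the session block, 55 with an intensity trend and 0 to 12 without a mouse. With 5-ASA, 5 members became 11 with processed signals, 2 with the authors' table, 3 with the mean of probes, 8 in Cy3 only, 12 with the replicate block, 0 with the session block and 0 to 10 without a mouse. There, 651 genes became 1089, 419, 1088 with the replicate block, 0 with the session block and 0 to 893 without a mouse. For 5-ASA in polypoid tissue, 0 genes became 1 with processed signals. The causes were not tested. Same-numbered mice of different groups correlated between 0.03 and 0.36 in their deviations, with 2 of 6 pairs under 0.1, so the replicate number was not taken as a pairing. Dim probes, with sample signals near background, limit what can be seen for the 31 members that passed in only some groups.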
